A study of Mus musculus with 6 samples.

Results

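The 10 genes of fibroblast growth factor (FGF) signalling described here, out of 44556 genes counted, were followed in RNA from the parietal bone of newborn mice: the ligands Fgf2, Fgf7, Fgf9 and Fgf18, the receptors Fgfr1, Fgfr2 and Fgfr3, and the feedback inhibitors Spry1, Spry2 and Spry4. They were taken from the count tables by name, with no threshold on their values. Of the 10 genes, 9 had enough counts to be tested between genotypes, and Fgfr1 did not. None of the 9 passed the test between the genotypes, and the 95% interval of the difference in level ran from -12.3% to 10.5% for Fgfr2, the most precisely measured, and from -43.2% to 105.4% for Fgf2, the least.

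FGF ligands bind receptor tyrosine kinases on the cell surface, with heparan sulfate as a cofactor, and the activated receptors signal through adaptors to RAS and the ERK kinases. ERK signalling induces its own inhibitors, among them the Sprouty proteins, so that transcripts of Sprouty and related genes are widely read as an output of the pathway. In the skull vault, FGF18 is a ligand for the osteoblast lineage, FGF9 acts in skeletal and joint development, and gain-of-function mutations of the FGF receptors fuse the sutures early.

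The study compared 3 OsxCre newborns with 3 OsxCre;Stat3fl/fl littermates of strain C57BL/6. Both genotypes carried Osx-Cre, a Cre recombinase expressed mainly in osteoblast precursors, and the second also carried Stat3 alleles with loxP sites on both copies, so that Stat3 was to be deleted in that lineage and not in the other cells of the tissue. The bone was sequenced in bulk, with n = 3 mice per genotype by the methods. The labels give no sex, and the study speaks of male newborns, whereas all 6 libraries held Xist, the transcript of the inactive X chromosome, at 881 to 1059 CPM and at most 1 count of each of 4 Y-linked genes. In bulk tissue, fewer cells of a type and less RNA per cell cannot be told apart. The p-values of the fits below measure a difference against the spread between libraries within the genotypes. That spread is pooled over both genotypes and moderated over all genes tested.

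The counts summed to between 8193651 and 12080044 per library, and 3 counts, taken as the floor, correspond to between 0.248 and 0.366 CPM (counts scaled to the depth of the library). Stat3 itself was not lower in the libraries labelled OsxCre;Stat3fl/fl, with 150, 135 and 141 CPM in OsxCre and 153, 155 and 155 CPM in OsxCre;Stat3fl/fl (log2 fold change 0.12, adjusted p = 0.442 by edgeR's quasi-likelihood test), so that the genotypes rest on the labels. Every OsxCre;Stat3fl/fl library lay above every OsxCre library for Stat3, where 23% of all genes tested showed no overlap. A count for the whole gene does not separate the deleted exons. The study reported loss of STAT3 protein by western blot in cultured bone marrow stem cells of this genotype, not in the bone sequenced here. Osteoblast markers were strongly expressed in both groups, with summed CPM of 14330 to 19310 in OsxCre and 13310 to 16940 in OsxCre;Stat3fl/fl, and Ibsp, a bone matrix protein gene, was 1 of 9 past an adjusted p (log2 fold change -0.66, adjusted p = 0.0213). Muscle markers were also strong, and their sum was higher in every OsxCre;Stat3fl/fl library (33950 to 50540 CPM, against 28830 to 31000; 6 of 10 higher and 1 lower at an unadjusted p under 0.05). Of these, 2 passed an adjusted p, in opposite directions. Myh4 was lower (log2 fold change -3.61, adjusted p = 3.87e-05 by edgeR) and Myh3 higher (1.715, adjusted p = 0.0204 by edgeR). The sum of haematopoietic markers was lower in every OsxCre;Stat3fl/fl library (3219 to 5781, against 6380 to 8880; 4 of 7 lower and 1 higher). Cartilage markers overlapped (3242 to 4224, against 2199 to 3741). Of the epidermis markers, only Krt10 and Dsp had enough counts to be tested, and the list's summed level was 8.14 to 19.3 CPM. At the unadjusted p, 3 of 7 suture and periosteal mesenchyme markers, 1 of 8 cartilage markers, 1 of 5 endothelial markers, 1 of 2 epidermis markers (Dsp) and 0 of 8 neural and meningeal markers were higher, and none of these was lower, where 8.03% of all genes tested were higher. Of the osteoblast markers, 2 of 9 were lower (Ibsp and Alpl), where 8.34% of all genes were, and none was higher. The part of any other cell type in the values below was not tested.

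Levels were first compared between genes, in CPM per kilobase of exon (the union of annotated exons, mean over the 6 libraries). Fgfr2, the receptor of osteoprogenitors and of suture mesenchyme, was the highest of the 9 tested members at 17.8. Spry1 followed at 13.1, Fgf18 at 9.63, Spry2 at 8.86 and Fgfr3 at 8.40, and the ranges of these neighbours overlapped over the 6 libraries. Spry4 came next at 4.46, then Fgf7 at 3.01, with overlapping ranges. Fgf9 at 1.21 and Fgf2 at 0.922 were the lowest of the tested members, again with overlapping ranges. The ranges did not overlap between Fgfr2 and Spry1, between Fgfr3 and Spry4, or between Fgf7 and Fgf9. The order within the middle group depended on the length used. Fgfr3 ranked 6 of 11 FGF genes (the members and Fgfr4) by the union of exons and 2 by the longest transcript. Fgfr2 ranked 1 under each of the 3 lengths. The Fgfr1 row, not above the floor of 3 counts, ranked 11 and gives no level for Fgfr1.

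Promoter windows of RefSeq (build GRCm38.p6, 250 bases before to 50 after a start) were searched for letters bound by STAT proteins, TTCNNNGAA, which reads the same pattern on both strands, and by ETS factors such as the ERK targets Etv4 and Etv5, AGGAAG on either strand. Windows were matched for 8 of the 10 members. None of their 9 windows held the STAT letters, which stand in 8.3% of all 32851 windows, and 2 of the 8 genes, Fgf2 and Fgfr2, held the ETS letters, which stand in 35.4% of all windows. The 3 matches are shown 5′ to 3′ on the strand of the gene with the ETS letters in capitals, since they are the only matches to either pattern among the members. Fgf2 lies at chr3:37348684-37348702 on the plus strand, with its match from base 42 after the start, and the matches of Fgfr2 lie on the minus strand at chr7:130267001-130267026, 208 bases upstream, and at chr7:130266759-130266780, from base 39.
Fgf2: tctcggcttcAGGAAGagt
Fgfr2 upstream: ttaagaaggcAGGAAGcactctgaac
Fgfr2 downstream: cacgtgttccCTTCCTaaagga
A match is a run of letters and not a measured binding site, and CTTCCT is AGGAAG read on the other strand. The windows do not reach further upstream, where the study placed its predicted STAT3 sites of the Dlx5 promoter. With so few windows, the absence of the STAT letters does not set the members apart from all windows.

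Taken as a group, the 9 tested members did not separate the genotypes. None passed an unadjusted p under 0.05, where 16.4% of the 15600 genes tested did, and none passed an adjusted p under 0.05, where 1.26% did (196 genes). For none did the 3 values of one genotype lie apart from the 3 of the other, where 23% of all genes tested showed no overlap. The log2 fold change (OsxCre;Stat3fl/fl minus OsxCre) was negative for 5 and positive for 4, with a median of -0.02 and a range of -0.38 to 0.33. The members' summed level was between 293.4 and 310.8 CPM in OsxCre and between 294.1 and 300.6 CPM in OsxCre;Stat3fl/fl. DESeq2's Wald test and limma-voom likewise called none at an adjusted p. Leaving out 1 library brought a single member past the unadjusted p in 3 of 6 fits, a different one each time, and these are given with the gene.

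**Figure D1:**
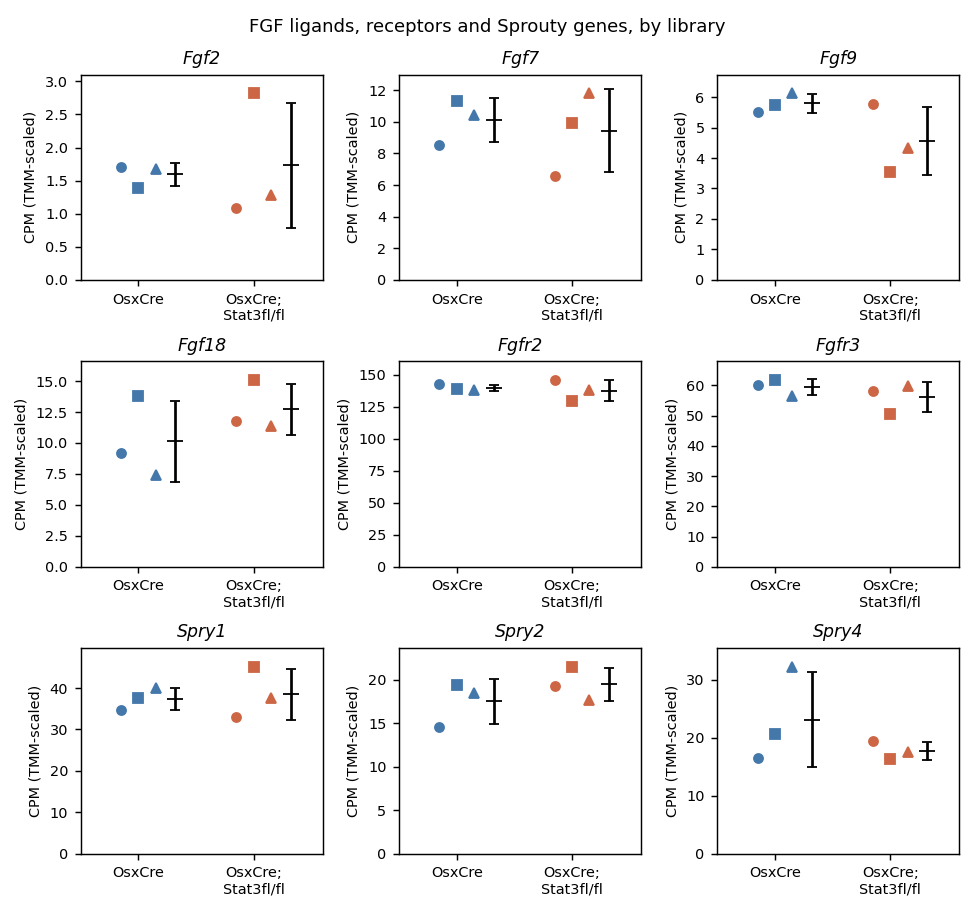
Level of each of the 9 tested members in CPM scaled by TMM (y axis from 0, its own scale in each panel) in the 3 OsxCre (blue) and 3 OsxCre;Stat3fl/fl (orange) libraries; circle, square and triangle are replicates 1, 2 and 3 and the black mark is the mean with the SD. The genotypes overlap in every panel, with Spry4 in OsxCre replicate 3, at 32.2 CPM, standing above the other 5 libraries.

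Fgf9, which signals through Fgfr2 and Fgfr3 in skeletal tissue and lies on chromosome 14 (58070671 to 58112854, GRCm38.p6), gave the most negative difference among the 4 member ligands. It had 5.52, 5.75 and 6.13 CPM in OsxCre replicates 1 to 3 and 5.76, 3.56 and 4.33 CPM in OsxCre;Stat3fl/fl. OsxCre;Stat3fl/fl replicate 1 lay inside the OsxCre range and replicates 2 and 3 lay below it. The means were 5.80 ± 0.306 and 4.55 ± 1.12 CPM (SD, n = 3 each), and the log2 fold change was -0.35 (SE 0.23, 95% interval -0.87 to 0.17, adjusted p = 0.493 by edgeR's quasi-likelihood test). Without OsxCre;Stat3fl/fl replicate 1 it was -0.555 (unadjusted p = 0.0436 and adjusted p = 0.294 by edgeR). Between 29 and 73 counts per library stood behind these levels. The study's heatmap showed Fgf9 as lower among osteoblast-related genes, with Cuffdiff on FPKM values as its method. With the counts and the test used here, Fgf9 did not pass.

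Fgf18, a ligand that promotes calvarial bone growth (chromosome 11, 33116970 to 33147400), went the other way. The 3 OsxCre libraries had 9.23, 13.8 and 7.39 CPM, and the 3 OsxCre;Stat3fl/fl libraries had 11.8, 15.1 and 11.3 CPM. OsxCre replicates 1 and 3 lay below all of OsxCre;Stat3fl/fl, and OsxCre replicate 2 lay among them. For Fgf18 the log2 fold change was 0.33 (SE 0.25, 95% interval -0.24 to 0.90, adjusted p = 0.556 by edgeR), from 10.1 ± 3.29 to 12.7 ± 2.04 CPM (SD, n = 3). Without OsxCre replicate 2 it was 0.61 (unadjusted p = 0.0194, adjusted p = 0.298 by edgeR). Fgf9 and Fgf18 thus had opposite signs in these libraries, and the interval of each covered both signs.

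Fgf7, known as keratinocyte growth factor and made by mesenchymal cells, had 8.57, 11.3 and 10.4 CPM in OsxCre and 6.61, 9.93 and 11.8 CPM in OsxCre;Stat3fl/fl, where replicates 1 and 3 were the lowest and highest of all 6. Its log2 fold change was -0.09 (SE 0.23, 95% interval -0.63 to 0.44, adjusted p = 0.890 by edgeR), and it was 0.11 without OsxCre;Stat3fl/fl replicate 1. The gene lies on chromosome 2 (126034658 to 126091185) within the span of Fam227b, which had at most 1 count in a library.

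Fgf2, basic FGF, was near the limit of what these libraries can show, with 18, 14 and 20 counts in OsxCre and 9, 23 and 11 in OsxCre;Stat3fl/fl. In CPM these were 1.71, 1.39 and 1.68, and 1.08, 2.82 and 1.29. OsxCre;Stat3fl/fl replicate 2 was the highest of the 6 libraries, and replicates 1 and 3 of that genotype were the lowest. Its log2 fold change was 0.11 with an interval of -0.82 to 1.04 (SE 0.40, adjusted p = 0.930 by edgeR), and it was -0.42 without that replicate, so that neither its direction nor its size was fixed. On chromosome 3 (37348477 to 37410106) Fgf2 overlaps Nudt6 and Fgf2os. Nudt6 had 96 to 147 counts per library and a log2 fold change of -0.11 (adjusted p = 0.744 by edgeR), and Fgf2os had 1 to 3 counts. The sources used here do not state whether reads were counted by strand, so reads of Fgf2 and of its antisense neighbours may not have been separated.

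Among the receptors, Fgfr2 was measured most precisely (chromosome 7, 130162451 to 130266808). It had 143, 139 and 138 CPM in OsxCre and 146, 129 and 138 CPM in OsxCre;Stat3fl/fl, from 1054 to 1644 counts per library. The highest and the lowest library were both OsxCre;Stat3fl/fl. Its log2 fold change was -0.02 (SE 0.07, 95% interval -0.19 to 0.14, adjusted p = 0.920 by edgeR), which bounds the difference in level between -12.3% and 10.5%. Its direction turned when OsxCre;Stat3fl/fl replicate 2 was left out (0.03).

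Fgfr3, a receptor best known as a brake on cartilage growth and also made in osteoblasts (chromosome 5, 33721724 to 33737068), had 60.1, 61.8 and 56.4 CPM in OsxCre and 58.0, 50.6 and 59.8 CPM in OsxCre;Stat3fl/fl. Only OsxCre;Stat3fl/fl replicate 2 lay below the OsxCre range. Its log2 fold change was -0.08 (SE 0.09, 95% interval -0.29 to 0.12, adjusted p = 0.707 by edgeR), or between -18.0% and 8.84% in level. The intervals of Fgfr2 and Fgfr3 were the narrowest of the 9 members.

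Fgfr1, the receptor of early mesenchyme (chromosome 8, 25518759 to 25575718), was listed with 0, 0 and 2 counts in OsxCre and 0, 0 and 3 in OsxCre;Stat3fl/fl. None of the 6 values exceeds the floor of 3 counts, and no fold was formed. In the annotation of GRCm38.p6 the gene overlaps Gm31288 and Gm16159, neither of which has a row of its own in the tables, and what set the level of this row was not tested. The row says nothing about how much Fgfr1 the tissue expressed.

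The mix of receptors was compared within libraries, where scaling between libraries plays no part. Fgfr2 gave 2.37, 2.25 and 2.45 counts per Fgfr3 count in OsxCre and 2.51, 2.55 and 2.30 in OsxCre;Stat3fl/fl. Both genotypes thus kept between 2 and 3 Fgfr2 counts for each Fgfr3 count, with overlapping values. Per kilobase, Fgfr2 made up 49.2% ± 3.24 of the receptor signal in OsxCre and 47.9% ± 1.63 in OsxCre;Stat3fl/fl (SD, n = 3), Fgfr3 23.7% ± 2.19 and 22.1% ± 1.48, and Fgfr4 27.1% ± 5.28 and 30.0% ± 2.76. Fgfr4, a receptor of muscle and liver and no member of the set, had 28.5, 32.5 and 45.4 CPM in OsxCre and 37.7, 42.2 and 37.7 CPM in OsxCre;Stat3fl/fl (log2 fold change 0.14, adjusted p = 0.741 by edgeR). The Fgfr1 row held at most 0.118% in a library, so the mix describes the other three receptors only. With the mean transcript length in place of the exon union, the Fgfr2 share was 58.5% and 57.5%. The order of Fgfr3 and Fgfr4 also depended on the length. Their means over all libraries were 22.92% and 28.54% by the exon union and 24.35% and 19.95% by the longest transcript. By the mean transcript length they were 20.94% and 20.99%.

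**Figure D2:**
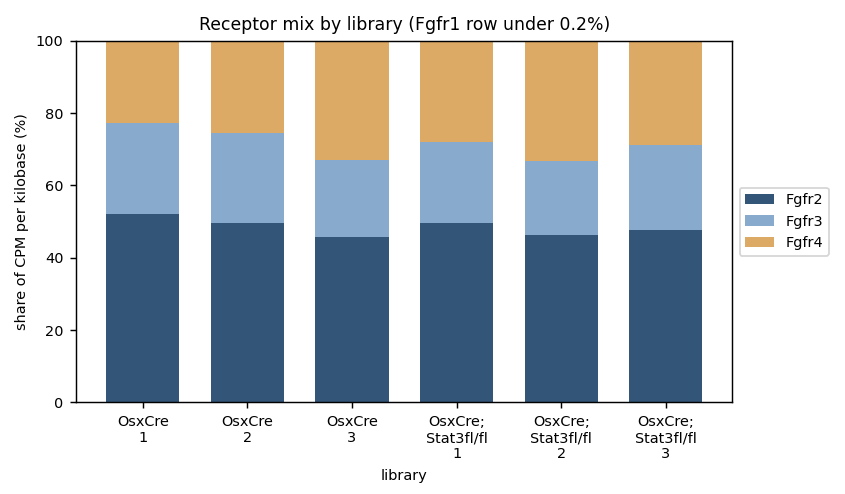
Share of Fgfr2, Fgfr3 and Fgfr4 in the summed CPM per kilobase of the FGF receptors (y axis, percent) in each of the 6 libraries (x axis). Fgfr2 takes between 45.7% and 52.2% in every library, and the genotypes overlap for each receptor.

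Spry4, a feedback inhibitor of RAS-ERK signalling that is induced by FGF (chromosome 18, 38586247 to 38601347), gave the most negative difference of all members, through 1 library. It had 16.5, 20.6 and 32.2 CPM in OsxCre and 19.5, 16.3 and 17.5 CPM in OsxCre;Stat3fl/fl. OsxCre replicate 3 stood above the other 5 libraries, which ran together. The log2 fold change was -0.38 (SE 0.24, 95% interval -0.93 to 0.16, adjusted p = 0.473 by edgeR), from 23.1 ± 8.17 to 17.8 ± 1.59 CPM (SD, n = 3). Without OsxCre replicate 3 it was -0.06 (adjusted p = 0.896 by edgeR), and without OsxCre replicate 1 it was -0.57 (unadjusted p = 0.0291, adjusted p = 0.325 by edgeR). OsxCre replicate 3 also had the highest Fgfr4 level of the 6 and the highest cartilage markers of the OsxCre libraries (a summed 3741 CPM against 2199 and 2547). For cartilage markers, OsxCre;Stat3fl/fl replicates 1 and 3 lay above it, at 4224 and 3868 CPM, and replicate 2 below, at 3242 CPM. The part of Fgfr4-expressing or cartilage cells in the Spry4 value was not tested.

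Spry1 (chromosome 3, 37639947 to 37644599) was the most abundant Sprouty gene. It had 34.6, 37.6 and 40.0 CPM in OsxCre and 32.9, 45.1 and 37.5 CPM in OsxCre;Stat3fl/fl, whose replicates 1 and 2 were the lowest and the highest of the 6. Its log2 fold change was 0.04 (SE 0.13, 95% interval -0.25 to 0.33, adjusted p = 0.913 by edgeR), and its sign turned when the libraries were scaled by their totals alone (-0.01).

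Spry2, on chromosome 14 (105891947 to 105896819), had 14.6, 19.4 and 18.5 CPM in OsxCre and 19.2, 21.5 and 17.7 CPM in OsxCre;Stat3fl/fl. OsxCre replicate 1 was the lowest and OsxCre;Stat3fl/fl replicate 2 the highest, with the other libraries between. For Spry2 the log2 fold change was 0.15 (SE 0.14, 95% interval -0.18 to 0.49, adjusted p = 0.660 by edgeR).

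The Sprouty genes were also set against Fgfr2, the most abundant of Fgfr2, Fgfr3 and Fgfr4, within each library. Per Fgfr2 count there were 0.243, 0.271 and 0.290 Spry1 counts in OsxCre and 0.226, 0.349 and 0.273 in OsxCre;Stat3fl/fl. For Spry2 the ratios were 0.102, 0.140 and 0.134, and 0.132, 0.166 and 0.128. Spry4 gave 0.115, 0.149 and 0.234 in OsxCre, with replicate 3 again apart, and 0.133, 0.126 and 0.127 in OsxCre;Stat3fl/fl. All 3 ratios overlapped between the genotypes. There were 1.13, 1.06 and 1.75 Spry4 counts per Spry2 count in OsxCre and 1.01, 0.760 and 0.993 in OsxCre;Stat3fl/fl, so that the highest OsxCre;Stat3fl/fl value lay below the lowest of OsxCre. This pair was picked from 7 ratios after their values were seen, and carries no test.

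**Figure D3:**
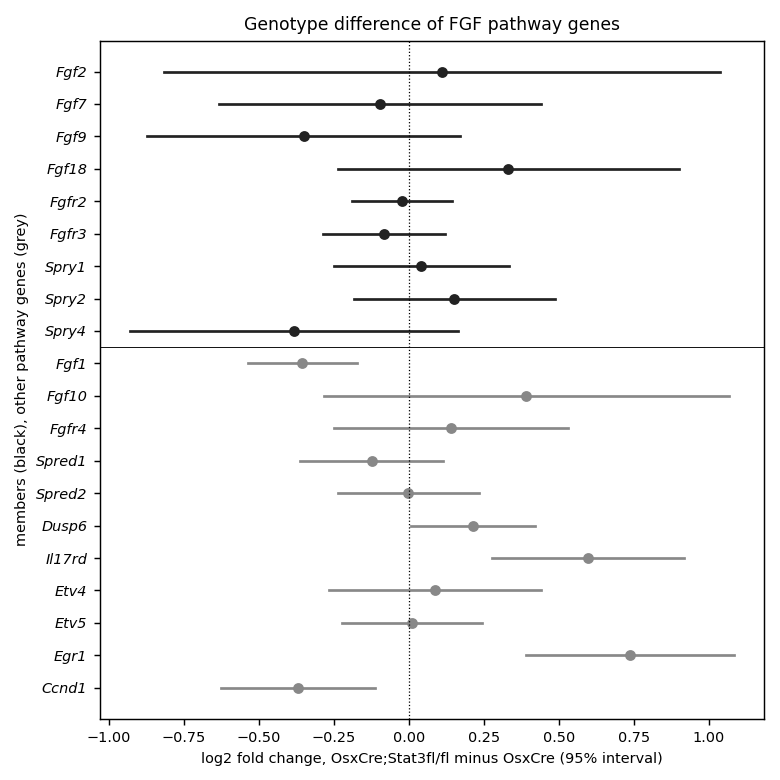
Log2 fold change (x axis, OsxCre;Stat3fl/fl minus OsxCre) with its 95% interval for the 9 tested members (black, above the line) and 11 other FGF pathway genes (grey, below it), from edgeR's quasi-likelihood fit. Every member's interval covers 0, from -0.19 to 0.14 for Fgfr2 to -0.82 to 1.04 for Fgf2, and the intervals of Fgf1, Dusp6, Il17rd, Egr1 and Ccnd1 do not, although none of these passed an adjusted p under 0.05.

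The rest of the pathway was read from 6 lists of 82 genes, 81 with a row and 68 with enough counts to be tested. At an unadjusted p under 0.05, 7 were lower (8.34% of all genes tested were) and 11 higher (8.03% of all were), or 18 of 68 in all, and none passed an adjusted p. Their median log2 fold change was -0.02, beside -0.00371 for all genes tested. Without OsxCre replicate 1 or 2 the 18 became 8 and 7, and without OsxCre;Stat3fl/fl replicate 1 or 3 they became 11 in each case. Of all genes tested, 12.8% passed the unadjusted p without OsxCre replicate 1 and 12.6% without OsxCre replicate 2. The shares were 16.1% and 12.8% without OsxCre;Stat3fl/fl replicate 1 and 3.

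Beside the 4 member ligands, the other 14 secreted FGF genes were mostly too low to test, with 3 of 14 tested. Fgf1, acidic FGF, a ligand of all the FGF receptors, was the most counted. It had 45.5, 46.3 and 46.0 CPM in OsxCre and 35.3, 34.2 and 38.2 CPM in OsxCre;Stat3fl/fl, so that every OsxCre;Stat3fl/fl library lay below every OsxCre library. The log2 fold change was -0.35 (SE 0.08, unadjusted p = 0.00202, adjusted p = 0.0825 by edgeR), which did not pass the adjusted threshold, nor did it under any of 14 alternatives (adjusted p 0.0771 to 0.236). Fgf16 gave 0.90 (adjusted p = 0.209 by edgeR) from 13 to 33 counts per library, and Fgf10, a mesenchymal ligand of Fgfr2, gave 0.39 (adjusted p = 0.559 by edgeR). The 4 intracellular homologous factors, which do not act through the receptors, were all tested and none passed an unadjusted p. Fgf11, the most counted of them, gave 0.08 (adjusted p = 0.834 by edgeR).

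The 17 genes of the feedback and target list sit nearest to the Sprouty genes in function, and 15 were tested. At an unadjusted p, 6 of the 15 were higher and 1 was lower in OsxCre;Stat3fl/fl, or 46.7% beside 16.4% of all genes, with a median log2 fold change of 0.09. Il17rd, or Sef, a membrane inhibitor of FGF receptor signalling, had 22.3, 21.9 and 24.3 CPM in OsxCre and 29.1, 33.2 and 41.3 CPM in OsxCre;Stat3fl/fl (log2 fold change 0.60, SE 0.14, unadjusted p = 0.00269, adjusted p = 0.0932 by edgeR). Egr1, an immediate early transcription factor induced by ERK, had 31.3, 37.4 and 46.5 CPM in OsxCre and 56.9, 65.6 and 69.9 CPM in OsxCre;Stat3fl/fl (log2 fold change 0.74, SE 0.15, unadjusted p = 0.00121, adjusted p = 0.0663 by edgeR). The genotypes did not overlap for either gene. Both passed an adjusted p under other settings: Il17rd at 0.0420 with no filter on low counts and 0.0267 with DESeq2's Wald test, and Egr1 at 0.00963 and 0.000962. Over all 14 alternatives, the adjusted p of Il17rd ran up to 0.246 and that of Egr1 up to 0.229.

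Dusp6, a phosphatase that inactivates ERK, had 44.8, 46.4 and 46.6 CPM in OsxCre and 48.5, 58.8 and 52.6 CPM in OsxCre;Stat3fl/fl (log2 fold change 0.22, SE 0.09, unadjusted p = 0.0434, adjusted p = 0.287 by edgeR). The other 3 of the 6 were Fos, Dusp5 and Erf, named after their values were seen, at 0.90, 0.80 and 0.31. Ccnd1, the cell cycle gene cyclin D1, was the lower one, with 155, 157 and 172 CPM in OsxCre and 143, 125 and 107 CPM in OsxCre;Stat3fl/fl (log2 fold change -0.37, SE 0.11, unadjusted p = 0.0108, adjusted p = 0.161 by edgeR). Direct relatives of the Sprouty genes and the classic ETS targets of FGF gave small values: Spred1 gave -0.12, Spred2 -0.00, Etv4 0.09 and Etv5 0.01, with adjusted p-values of 0.609 to 0.998 by edgeR. Il17rd and Egr1 were thus higher at the unadjusted p, whereas the 3 Sprouty genes, Etv4 and Etv5 did not pass it, and whether the genes differ from each other in this was not tested. Without OsxCre replicate 2, the count of the list was 4 of 15, where 12.6% of all genes tested passed the unadjusted p. Egr1 and Fos passed an adjusted p without OsxCre replicate 3, and Fos also did with DESeq2's Wald test. Muscle and haematopoietic markers moved between the genotypes as given above, and their part in these values was not tested.

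**Figure D4:**
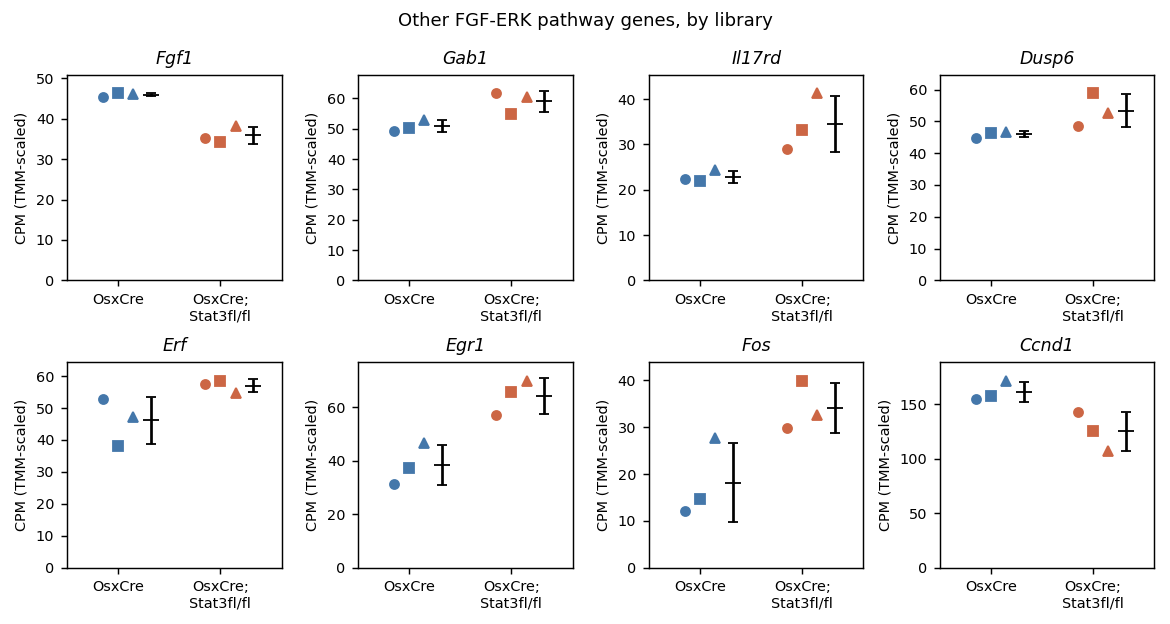
Level of 8 other genes of the FGF-ERK pathway in CPM scaled by TMM (y axis from 0, its own scale in each panel) by library, with colours, symbols, mean and SD as in the plot of the members. All 3 OsxCre;Stat3fl/fl libraries lie below OsxCre for Fgf1 and Ccnd1 and above it for the other 6 genes. Only genes without overlap are drawn. Of the 68 tested pathway genes, 24 showed no overlap, where 23% of all genes tested did.

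Of 18 tested adaptors and kinases between receptor and ERK, 2 were higher and 1 lower at an unadjusted p, or 16.7% beside the 16.4% of all genes. Gab1, a docking protein of the receptor complex, gave 0.21 (adjusted p = 0.231 by edgeR), Cbl, a ubiquitin ligase for activated receptors, 0.28, and Nras -0.19, whereas Ptpn11, the phosphatase SHP2 and the most counted of the list, gave 0.06. Of the 60 other pathway genes matched, 3 held the STAT letters, namely Gab1, Fgf12 and Fgf23, in 4 of 73 windows, where 8.3% of all windows hold them. Gab1 passed an unadjusted p under 0.05 between the genotypes, Fgf12 did not, and Fgf23 had too few counts to be tested. The Gab1 stretch at chr8:80880473-80880501 on the minus strand is shown with the STAT letters in capitals. This same stretch was counted in windows of separate Gab1 starts, at base -12 and at base 29.
Gab1: ccggaggagtTTCAGAGAAagtctgggct

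Of 19 other receptors, coreceptors and ligand carriers, 2 were higher and 2 lower at an unadjusted p, or 21.1% beside the 16.4% of all genes. The heparan sulfate proteoglycans Sdc4 and Hspg2 were the higher ones (0.25 and 0.39), and Sdc3 and Flrt3 the lower (-0.21 and -0.38). Among 9 genes tied to craniosynostosis or suture patency, 2 were lower at an unadjusted p, where 8.34% of all genes were, and none was higher. A negative log2 fold change, whatever its p, was found for 7 of the 9, where 50.7% of all genes tested had it. Twist1, whose loss of function fuses the coronal suture, had 40.8, 35.6 and 36.0 CPM in OsxCre and 31.1, 33.5 and 29.9 CPM in OsxCre;Stat3fl/fl (log2 fold change -0.25, SE 0.09, unadjusted p = 0.0299, adjusted p = 0.245 by edgeR). Gli3 gave -0.24 and Prrx1, the most counted, -0.17, of which Prrx1 did not pass the unadjusted p.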

How the data were processed

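RNA-seq libraries came from the parietal bone of 3 OsxCre and 3 OsxCre;Stat3fl/fl newborns, grouped by the sample labels. For each library the authors deposited whole-number counts per gene symbol, without normalization. The submitters' processing notes name HISAT2 and GRCm38, whereas the methods name TopHat, mm9 and FPKM values by Cufflinks. The counting program and annotation are not given in the sources used here. The labels give polyA RNA and the methods total RNA.

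The fits used edgeR 4.0.16 (R 4.3.3). Genes were kept by filterByExpr (minimum count 10, minimum total 15), scaled by TMM, and compared over 15600 genes with the two-sided quasi-likelihood test and Benjamini-Hochberg adjustment; intervals are 95% from the t quantile of that fit. DESeq2 1.42.0 and limma 3.58.1 gave alternatives. For single genes in CPM an exact permutation test (two-sided, smallest p 0.1 at 3 against 3) gave between 0.3 and 1 for the 9 members tested. Lengths per kilobase came from the GENCODE annotation of mm9, positions and promoters from RefSeq on GRCm38.p6. The floor of 3 counts and all intervals cover counting error and library spread only. Pairs of libraries of one genotype differed by a chi-square of 7.51 to 15.6 per degree of freedom, so none was a duplicate.

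The members and gene lists were chosen with earlier results of these data known. Named were all members, Stat3, the 3 genes of smallest unadjusted p under 0.05 and the most counted gene of each pathway list, Dusp6, Etv4, Etv5, Spred1, Spred2, Il17rd, Fgfr4, Fgf10, Fgf1 and Twist1, and of each marker list the most counted gene and that of smallest p. Not all genes named by this rule are given values. Figures were drawn with Python 3.11.15 and matplotlib 3.10.9.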

Additional observations from a re-analysis of the deposited data

How the results depend on the processing

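No member passed an adjusted p under any of the 14 alternatives: of 126 values, 7 changed sign. With library totals, Spry1 was -0.00869 and Etv5 -0.0311, with limma-voom Fgf2 was -0.00311, and Spred2 was 0.00193 with DESeq2's size factors and 0.00214 with its Wald test. Leaving out single libraries, log2 fold changes ran from -0.419 to 0.357 for Fgf2, -0.286 to 0.108 for Fgf7, -0.0661 to 0.0273 for Fgfr2, -0.0788 to 0.144 for Spry1, -0.0347 to 0.166 for Etv4, -0.0319 to 0.0939 for Etv5, -0.0825 to 0.0595 for Spred2 and -0.0444 to 0.158 for Fgf11. The cause was not tested. Members at an unadjusted p numbered 0 to 1 in those fits, and pathway genes at an unadjusted p 7 to 16, beside 9 with DESeq2's Wald test. Members without overlap numbered 0 to 2 with a library left out. The share of all genes without overlap was not computed for those fits, so nothing is read from that count. Of all genes tested, 12.6% to 16.1% passed the unadjusted p in those fits, and 12.1% with DESeq2's Wald test. Over all genes, 75 were lower and 121 higher at an adjusted p, 178 and 250 with no filter, 231 and 307 with DESeq2's Wald test, and 5 to 36 and 7 to 67 with a library left out. Library totals gave 114 lower genes, so that lower genes made up 50.7% of calls instead of 38.3%. The Fgfr2 share was 58.54% and 57.53% with the mean transcript length.

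Same-numbered libraries did not deviate together (correlations -0.102, -0.528 and -0.0686), and libraries of unlike number ran from -0.465 to 0.529. With 3 libraries per genotype, these correlations cannot show whether animals were paired by litter or batch, under these numbers or others. With the replicate number as a block, 1 gene was lower and 0 higher at an adjusted p, and the block changed no call among the members. With 9 to 23 counts per library for Fgf2, depth limits what can be seen there.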

Other observations

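The intracellular factors Fgf12 and Fgf13, sodium channel partners of neurons, varied widely between libraries of one genotype. Fgf13 had 9.33, 24.1 and 13.9 CPM in OsxCre and 20.2, 6.25 and 18.0 CPM in OsxCre;Stat3fl/fl. The neuronal tubulin gene Tubb3 was high in the same libraries, at 32.0, 153 and 24.4 CPM, and 115, 9.93 and 76.5 CPM. Fgf13 and Tubb3 were both highest in OsxCre replicate 2 and lowest in OsxCre;Stat3fl/fl replicate 2. Tubb3 was taken from the 8 neural and meningeal markers. Snap25 and Stmn2 of that list had the same highest and lowest libraries. Others did not: Gfap was highest in OsxCre replicate 1 (145 CPM) and Ptgds lowest in OsxCre replicate 2 (562 CPM). The list's summed level was 982 CPM in OsxCre replicate 2 and 1590 CPM in OsxCre;Stat3fl/fl replicate 3.

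Among ligands too low to test, Fgf21, an endocrine FGF, had 21 counts in OsxCre replicate 3 and 0 to 3 in the other libraries. Klb, its coreceptor, had 10, 14 and 72 counts in OsxCre and 26, 50 and 56 in OsxCre;Stat3fl/fl (log2 fold change 0.89, adjusted p = 0.547 by edgeR). OsxCre replicate 3 is also the library with the highest Spry4. Fgf23, the phosphate-regulating hormone of osteocytes, had 7, 6 and 2 counts in OsxCre and 21, 7 and 7 in OsxCre;Stat3fl/fl. Fgf20 was listed at 0 in all 6 libraries. These genes were picked after their values were seen.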
